A study of Mus musculus with 6 samples.

Results

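The mouse tektin genes, Tekt1, Tekt2, Tekt3, Tekt4 and Tekt5, were examined in RNA from whole testes. The members were taken by gene symbol, and all 5 were found among the 53700 gene identifiers of the count tables. The study compared 3 mice labelled Msl3 wild type (WT) with 3 mice labelled as conditional knockouts of a floxed Msl3 allele (cKO), at postnatal day 45. Msl3 encodes a chromatin reader of the male-specific lethal complex, and the series asks whether its loss disturbs spermatogenesis. Both groups carry the same strain label, Msl3em1Forni/C57BL/6J. The recombinase line that would delete the floxed allele, and so the cells it acts in, is not given in the sources used here.

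Tektins are filament-forming coiled-coil proteins that lie inside the A-tubule of the doublet microtubules of cilia and flagella. There they form a bundle along the inner wall, together with other proteins of the tubule lumen, which are called microtubule inner proteins. In the testis their transcripts belong to germ cells that are building the sperm tail. Tekt1 to Tekt4 are shared with motile cilia, whereas Tekt5 is known mainly from sperm. Mice without Tekt2, Tekt3 or Tekt4 have been described with impaired sperm movement.

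The 5 genes lie on 4 chromosomes in the GENCODE M21 annotation of build GRCm38. Tekt1 (ENSMUSG00000020799) is at chr11:72344722-72362442 on the minus strand, and Tekt3 (ENSMUSG00000042189) is on the same chromosome at chr11:63061654-63094964 on the plus strand. Tekt2 (ENSMUSG00000028845) is at chr4:126322121-126325688 on the minus strand. Tekt4 (ENSMUSG00000024175) is at chr17:25454615-25476602 on the plus strand, and Tekt5 (ENSMUSG00000039179) is at chr16:10357948-10395490 on the minus strand. Their longest coding sequences run to 418 codons for Tekt1, 430 for Tekt2, 490 for Tekt3, 447 for Tekt4 and 557 for Tekt5. Over aligned bases, the coding sequences of any pair were 57.0% to 62.5% identical, with Tekt1 and Tekt4 the least alike and Tekt2 and Tekt5 the most alike. No stretch of 75 bases, the read length, in an annotated tektin transcript occurred in a transcript of another gene, each read in its own direction. Overlap on the opposite strand and copies outside annotated transcripts were not covered by that search.

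Promoters of the family were examined because regulatory factor X (RFX) proteins, among them the Rfx2 measured here, are known to act on genes of cilia and sperm tails through a promoter element called the X-box. The X-box is an inverted repeat, searched here as GTTGCC followed after 0 to 3 bases by GGCAAC, which reads the same on both strands. RefSeq promoters of GRCm38.p6, from 250 bases before to 50 bases after a start site, covered all 5 genes with 8 start sites. For each gene the stretch most like the repeat is shown, 5′ to 3′ on the strand of the gene, with the compared stretch in capitals.
Tekt1: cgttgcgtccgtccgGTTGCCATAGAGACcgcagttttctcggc
Tekt2: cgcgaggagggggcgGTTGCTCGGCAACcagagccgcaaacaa
Tekt3: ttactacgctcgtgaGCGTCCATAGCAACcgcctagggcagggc
Tekt4: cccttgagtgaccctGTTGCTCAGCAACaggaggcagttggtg
Tekt5: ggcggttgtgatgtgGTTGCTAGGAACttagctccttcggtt

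The Tekt2 stretch (chr4:126325690-126325732) matched 11 of the 12 letters of the repeat and ended 16 and 58 bases before 2 of the 3 annotated start sites. Of all 32851 promoters of that length, 1.2% held a match at least as close. The Tekt4 stretch (chr17:25471539-25471581) matched 10 of 12 letters, 23 bases before the start site, and 6.37% of promoters did as well. Tekt1 (chr11:72361869-72361912) matched 9 letters, directly before a start site, which 36.2% of promoters reached. Its stretch holds GTTGCC whole, a hexamer that 12.5% of promoters hold on either strand, promoters of Tekt2 and Tekt4 among them. Tekt5 (chr16:10395664-10395705) also matched 9 letters, which 36.2% of promoters reached. Tekt3 (chr11:63061606-63061649) matched 8 letters, 24 bases before its start site, which 91.6% of promoters reached. A match is a description of these letters and not evidence of binding.

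The libraries held 56991431 to 73766444 reads assigned to genes, the largest being cKO replicate 1. Msl3 itself was at 16.9 ± 1.68 CPM (read counts scaled to a common library size; SD, n = 3) in WT and 15.6 ± 0.649 CPM (SD, n = 3) in cKO, the groups overlapping (edgeR adjusted p 0.551). A lower Msl3 level was thus not detected, and groups are named by their labels. Gene counts cover all exons, so a deletion of some exons need not lower them. Ciliated and duct epithelia, which also make tektins or adjoin the testis, were checked by their markers. The epididymal genes Lcn5, Lcn8, Rnase9 and Adam7 had 0 to 4 reads in every library, and Rnase10 was at 3.60 to 5.41 CPM. Mcidas, the switch gene of multiciliated cells, had 1 to 3 reads per library, and Gmnc had 9 to 13. Ccno was at 3.53 to 4.27 CPM over the 6 libraries, and only Deup1 of that list was abundant, at 265 to 308 CPM.

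All 5 tektins were abundant transcripts, above at least 93.8% of the 21902 tested genes by mean CPM, which is not scaled for gene length. Their fold changes between the groups were small, from -0.02 to 0.09 on the log2 scale, and the groups overlapped for each of the 5. None passed an edgeR adjusted p of 0.05 (0 of 5), none had an unadjusted p under 0.05 and DESeq2 called 0 of 5. Over all tested genes, 0.0183% passed the adjusted threshold of edgeR, 1.48% of those with a DESeq2 adjusted p passed that test, 13.9% had an unadjusted p under 0.05 and 18.9% had groups that did not overlap. Of the 5 tektins, 4 had a fold change above 0, and their median was 0.06, against 0.00 and 50.7% above 0 over all tested genes. In bulk testis RNA, more or fewer cells of a type and more or less RNA per cell cannot be told apart.

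Tekt1 was the highest tektin. It was at 385, 369.7 and 366 CPM in WT and at 404, 377 and 365 CPM in cKO. The highest and the lowest of the 6 libraries were thus both cKO libraries, with the WT values between them. The cKO mean reached 102% of WT (95% limits 92.5% and 113%), a log2 fold change of 0.03 (SE 0.066; adjusted p 0.870, edgeR).

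Tekt2, whose loss in mice impairs the dynein arms of the sperm tail, was at 352, 339 and 339 CPM in WT and at 385, 365 and 345 CPM in cKO. The cKO replicates 1 and 2 stood above every WT library, and cKO replicate 3 fell between WT replicate 1 and the others. The cKO mean reached 106% of WT (95% limits 96.1% and 117%). Its log2 fold change of 0.09 (SE 0.066) was the highest of the family and had an edgeR adjusted p of 0.577.

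Tekt3 was the steadiest member. It was at 214, 210.0 and 209 CPM in WT and at 225, 222 and 213 CPM in cKO. The lowest cKO library lay just under the highest WT library, so the groups overlapped by that pair alone. The log2 fold change came to 0.06 (SE 0.062; adjusted p 0.712, edgeR), and the cKO level was 104% of WT (95% limits 94.8% and 114%).

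Tekt4 was at 261, 234 and 251 CPM in WT and at 289, 255 and 242 CPM in cKO. WT replicate 2 and cKO replicate 3 were low and cKO replicate 1 stood above the rest. The log2 fold change came to 0.08 (SE 0.079; adjusted p 0.703, edgeR), and the cKO level was 105% of WT (95% limits 93.5% and 119%). Without cKO replicate 1 the fold change of Tekt4 was -0.0013 and that of Tekt1 was -0.01, so the sign of both rested on that library.

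Tekt5, the form known mainly from sperm, varied most. It was at 191, 152 and 169 CPM in WT and at 193, 165 and 149 CPM in cKO. WT replicate 1 and cKO replicate 1 were high, and each group had a library near 150 CPM. The log2 fold change came to -0.02 (SE 0.10; adjusted p 0.963, edgeR). The cKO level was 99.0% of WT, with 95% limits of 84.7% and 116%, the widest of the 5. Its sign turned in 3 of the 14 alternative fits, without WT replicate 1 (0.07), without cKO replicate 2 (0.0035) and without cKO replicate 3 (0.07).

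**Figure D1:**
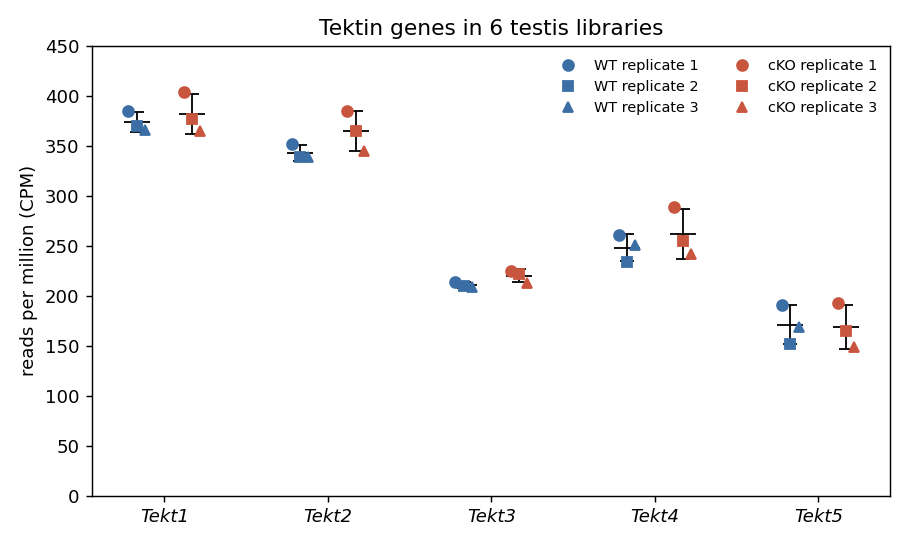
Level in CPM of each tektin in the 3 WT libraries (blue) and the 3 cKO libraries (red), with marker shape giving the replicate and black bars the mean and SD of each group. The groups overlap for all 5 genes, and cKO replicate 1 is the highest library for each of them.

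**Figure D2:**
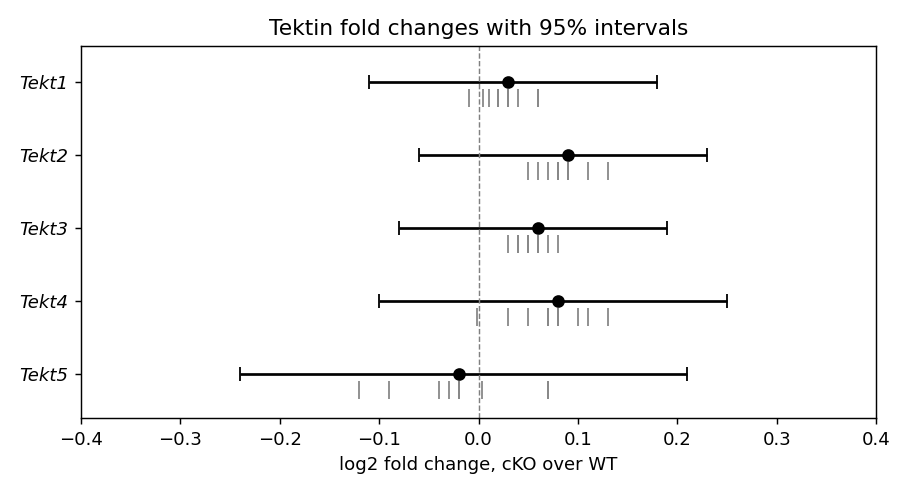
Log2 fold change of cKO over WT for each tektin (points) with its 95% interval from the edgeR fit (bars), and the values under 14 alternative fits (grey ticks). All 5 intervals include 0, and the Tekt5 interval, from -0.24 to 0.21, is the widest.

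For comparison with each other, levels of the tektins were taken per length, as CPM per kilobase of annotated exon. Tekt1 led at 230.3 ± 6.16 CPM per kilobase (SD, n = 3) in WT and 235 ± 12.5 (SD, n = 3) in cKO. Tekt2 followed at 181 ± 4.11 (SD, n = 3) and 192 ± 10.7 (SD, n = 3). These genes held the first and second place in each of the 6 libraries, and their ranges did not touch. Tekt4, at 124 ± 6.77 CPM per kilobase (SD, n = 3) in WT and 131 ± 12.3 (SD, n = 3) in cKO, and Tekt3, at 121 ± 1.56 (SD, n = 3) and 126 ± 3.68 (SD, n = 3), did not differ beyond their spread. Tekt4 was above Tekt3 in 4 libraries and below it in WT replicate 2 and cKO replicate 3. With the longest transcript as length, Tekt4 was above Tekt3 in every library. Tekt5 was lowest in every library, at 94.4 ± 10.7 CPM per kilobase (SD, n = 3) in WT and 93.4 ± 12.3 (SD, n = 3) in cKO.

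As a share of the 5 tektins per kilobase, Tekt1 made up 30.7% ± 0.559 (SD, n = 3) in WT and 30.3% ± 0.417 (SD, n = 3) in cKO. Tekt5 made up 12.6% ± 0.970 (SD, n = 3) and 12.0% ± 0.786 (SD, n = 3). Tekt2 made up 24.1% ± 0.379 (SD, n = 3) and 24.7% ± 0.294 (SD, n = 3). The group means differed by less than the SD of the WT libraries for Tekt1 and Tekt5 and by more for Tekt2. Among the 10 pairs of tektins, the log2 ratio of their levels differed without overlap for 1 pair, Tekt1 over Tekt2, singled out after its values were seen. That ratio was 0.36, 0.36 and 0.34 in WT and 0.30, 0.27 and 0.31 in cKO. The exact two-sided permutation p was 0.1, the smallest that 3 against 3 libraries allow, and 0.833 after adjustment over the 10 pairs.

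The members differed in how much they varied between mice. The SD of log2 CPM over the 6 libraries was 0.0433 for Tekt3, 0.0564 for Tekt1, 0.0723 for Tekt2, 0.106 for Tekt4 and 0.158 for Tekt5. Among the 10051 tested genes averaging 10 CPM or more, 4.48% had a smaller SD than Tekt3 and 81.3% a smaller SD than Tekt5. Tekt5 deviated from its own mean by 0.18 in WT replicate 1 and 0.19 in cKO replicate 1, and by -0.15 in WT replicate 2 and -0.18 in cKO replicate 3. Tekt4 deviated in the same direction in those 4 libraries, by 0.03, 0.18, -0.12 and -0.08. Tekt3 stayed within 0.06 of its mean in each library. The 2 libraries with high Tekt5 also had the lowest shares of reads outside genes, 4.98% and 5.05% against 5.85% to 6.94% in the other 4, whose part in the spread was not tested.

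**Figure D3:**
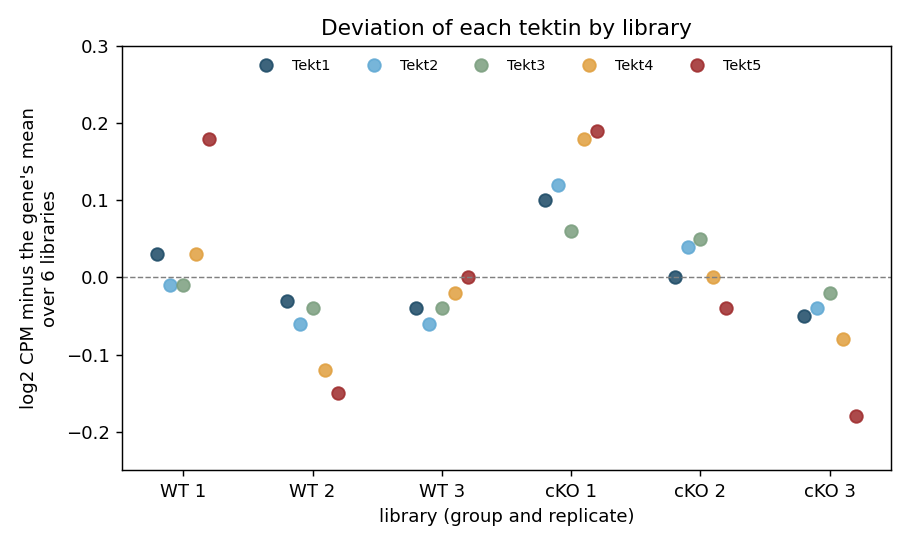
Deviation of each tektin from its own mean over the 6 libraries, in log2 CPM, by library, with a colour for each gene. All 5 genes lie above their means in cKO replicate 1 and below them in cKO replicate 3, and Tekt5 has the widest swing, from -0.18 to 0.19.

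Across the 6 libraries, Pearson correlations of log2 CPM between tektins ran from 0.52 (Tekt3 with Tekt5) to 0.97 (Tekt2 with Tekt3). The points of each correlation share their libraries and scaling, and all 5 genes were highest in cKO replicate 1. That library also stood apart in the 3 globin genes used as red blood cell markers, which summed to 2.11 CPM there and to 4.70 to 5.52 CPM in the other 5 libraries, and the part of this in the tektin values was not tested. By the same measure, the genes most like Tekt2 were Trim27 (r = 0.997), Ccdc42 (0.992), a gene of the sperm head-tail region, and Nudt9 (0.990). Those most like Tekt5 were Sufu (0.998), a brake on hedgehog signalling, 1110006O24Rik (0.997) and 1700108J01Rik (0.996). Tekt1 was followed most closely by 1700088E04Rik (0.992), Ybx1 (0.986), an RNA-binding protein gene, and Faiml (0.985). Tekt3 was most like Ccer1 (0.995), Pitpnm1 (0.994) and the noncoding gene ENSMUSG00000117698 (0.993). Tekt4 was most like Fdft1 (0.995), an enzyme of cholesterol synthesis, Lrrc73 (0.995) and Traf2 (0.994). With 6 libraries such values are common, and between 123 and 369 of the 10051 genes compared had r above 0.9 with a given tektin.

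Tekt2 is the only tektin that overlaps another annotated gene, the noncoding Gm12945 on the opposite strand, with 396 bases of shared exon. Strand-resolved counts, used throughout, gave Gm12945 between 2 and 15 reads per library. Unstranded counts of Tekt2 were 67.4% to 68.2% of the strand-resolved ones, while those of Tekt1, Tekt3, Tekt4 and Tekt5 were within 0.1 percentage points of equal. With unstranded counts, Tekt2 was at 126 ± 3.95 CPM per kilobase (SD, n = 3) in WT. Tekt4 was then at 128 ± 7.32 (SD, n = 3), not different beyond their spread. Tekt2 kept second place in WT replicate 2, cKO replicate 2 and cKO replicate 3, and was behind Tekt4 in the other libraries. The fold change of Tekt2 under unstranded counts was 0.09 and was not called (edgeR adjusted p 0.606).

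The other microtubule inner proteins, which line the same tubules, gave 25 matched genes of a list of 32, all 25 of them tested. None passed an edgeR adjusted p of 0.05, 5 had an unadjusted p under 0.05 (3 higher and 2 lower in cKO; 20.0% against 13.9% of all tested genes) and DESeq2 called 1, against 1.48% of the genes it gave an adjusted p. The groups did not overlap for 8 of the 25 (32.0%), against 18.9% of all tested genes. Their median log2 fold change was 0.03, with 16 above 0. The list summed to 3826 to 4066 CPM in WT and 3949 to 4188 CPM in cKO, with overlap, as did the tektins, at 1304 to 1403 CPM and 1313 to 1497 CPM.

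Of these genes, 3 were named by the rule, which takes at most 3 per list, and they pointed in both directions. Cfap53 met the same conditions on p and overlap but came after them. Its log2 fold change was 0.24 (edgeR unadjusted p 0.00818, adjusted p 0.288). Dusp21, a dual-specificity phosphatase family member found in sperm doublets, was at 12.6, 15.4 and 16.0 CPM in WT and at 11.0, 10.8 and 11.4 CPM in cKO. Every cKO library was below every WT library, a log2 fold change of -0.41 (SE 0.099; adjusted p 0.276, edgeR). DESeq2 gave it an adjusted p of 0.0301, and it was also called without a filter on low counts (edgeR adjusted p 0.00411) and without WT replicate 1 (0.0294). Over all genes those fits called 193 of 13069, 757 of 36605 and 116 of 22392, against 4 of 21902 in the main fit. Spmip10, annotated as Tex43 and known as a sperm-type inner protein, was at 69.1, 73.8 and 71.6 CPM in WT and at 64.5, 56.6 and 59.2 CPM in cKO. Its log2 fold change came to -0.25 (SE 0.071; adjusted p 0.278, edgeR), and its edgeR adjusted p was 0.0383 without cKO replicate 1. The fit without that library called 628 of 22255 genes in all.

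Mns1, a scaffold that sperm tails need to assemble, was at 304, 291 and 278 CPM in WT and at 326, 371 and 331 CPM in cKO. The cKO libraries were the 3 highest, a log2 fold change of 0.24 (SE 0.072; adjusted p 0.288, edgeR). Tektl1, annotated as Ccdc105 and named for its likeness to tektins, was at 144 ± 5.51 CPM (SD, n = 3) in WT and 156 ± 16.4 CPM (SD, n = 3) in cKO, the groups overlapping (edgeR adjusted p 0.538). It is given for its kinship to the family and lies outside the naming rule.

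**Figure D4:**
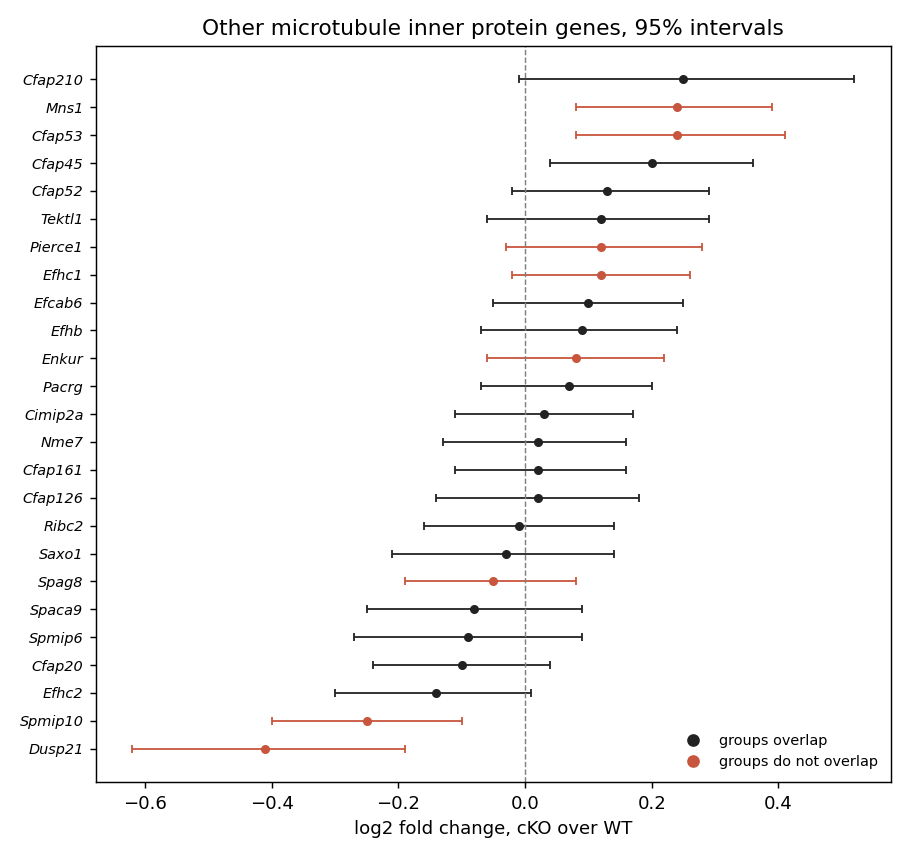
Log2 fold change of cKO over WT with 95% interval for the 25 other microtubule inner protein genes, sorted, with red for genes whose groups do not overlap. Values run from -0.41 (Dusp21) to 0.25 (Cfap210), and no gene passed the adjusted threshold.

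Regulators of ciliary and flagellar genes were compared as a list of 8. None passed an edgeR adjusted p of 0.05, 1 had an unadjusted p under 0.05 (12.5% against 13.9% of all tested genes) and DESeq2 called 0. The groups did not overlap for 2 of the 8 (Rfx2 and Foxj1), against 18.9% of all tested genes, and the median log2 fold change was 0.09 with 6 above 0. Their summed level was 1425 to 1441 CPM in WT and 1459 to 1580.1 CPM in cKO, without overlap, whereas the mean of their log2 levels overlapped. Rfx2, needed for round spermatids to develop, was at 321, 300.1 and 304 CPM in WT and at 327, 387 and 339.7 CPM in cKO. Its log2 fold change came to 0.19 (SE 0.076; adjusted p 0.315, edgeR). Foxj1, the master switch of motile cilia, was at 105, 108 and 104 CPM in WT and at 129, 114 and 109.5 CPM in cKO, with an edgeR adjusted p of 0.387. It lies outside the naming rule and is given because its groups did not overlap.

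Markers of the germ cell stages that could carry tektin transcripts, and of other testis cells, were set beside them. All 6 round spermatid markers had a fold change below 0, with a median of -0.18, of which 3 had an unadjusted p under 0.05 (50.0% against 13.9% of all tested genes) and 0 passed the edgeR adjusted threshold. Their summed level was 1197 to 1244 CPM in WT and 1035 to 1144 CPM in cKO, without overlap. Taken singly, the groups did not overlap for 1 of the 6, Izumo1 (16.7% against 18.9% of all tested genes). The 6 markers of pachytene spermatocytes had a median of -0.03 and summed to 6269.5 to 6433 CPM in WT and 5991 to 6545 CPM in cKO, with overlap. The 6 markers of elongating spermatids had a median of -0.13, with 4 below 0 and 2 above. They overlapped in sum, at 17222 to 18896 CPM and 14653 to 17676 CPM. Of these markers 1 had an unadjusted p under 0.05 (16.7% of the list against 13.9% of all tested genes) and 0 passed the edgeR adjusted threshold. That marker was Tnp1, with a log2 fold change of -0.40 (edgeR unadjusted p 0.00312) and overlapping groups. All 6 markers of Sertoli cells, the somatic cells that support germ cells, had a fold change above 0, with a median of 0.07. Of these, Sox9 and Wt1 had an unadjusted p under 0.05 (33.3% of the list against 13.9% of all tested genes). The same 2 had groups that did not overlap (33.3% against 18.9% of all tested genes), and 0 passed the edgeR adjusted threshold. The Sertoli sums overlapped at 188 to 217 CPM in WT and 192 to 229 CPM in cKO. The other somatic lists did not share that direction. Leydig cell markers had a median of -0.01, with 2 of 5 above 0, and macrophage markers a median of -0.08, with 1 of 4 above 0. Markers of spermatogonia had a median of 0.10, with 5 of 6 above 0. In each of these lists the sums overlapped and 0 passed the edgeR adjusted threshold. The tektin sum was highest in cKO replicate 1 and lowest in WT replicate 2, whereas the round spermatid sum was highest in WT replicate 2 and lowest in cKO replicate 2. The part of cell composition in the tektin values was not tested.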

How the data were processed

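Total RNA from testes of 6 mice was sequenced as single-end reads of 75 bp, per the labels' protocols. The deposited values are raw counts of reads per gene in the layout of STAR's gene counts, and the submitters' processing notes name STAR, HTSeq, DESeq2 and mm10 without versions. The annotation release is not given in the sources used here. Of the 3 count columns, that for the strand opposite to the gene held 96.0% to 96.2% of strand-resolved reads and was used. Lines naming no gene held 14.8% to 16.7% of reads and were left out. GENCODE M21 matched 52093 of 53700 identifiers.

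edgeR 4.0.16 (R 4.3.3) tested cKO against WT by quasi-likelihood with trimmed mean of M values scaling, filterByExpr at a minimum count of 10 and Benjamini-Hochberg adjustment over 21902 genes at 0.05. Log2 CPM used a prior count of 2. Standard errors and 95% limits came from the F statistic. Its dispersion combines a gene's own spread between these mice with a trend over all tested genes. The procedure was tested on simulated data. Alternatives were RLE scaling, library totals alone, no filter, at least 10 reads in every library, a replicate block, unstranded counts, DESeq2 1.42.0, robust quasi-likelihood, each library left out, and length of the longest transcript.

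Members, lists and tests were chosen with earlier results of these data known. Besides the tektins and Msl3, the rule named up to 3 genes per list with the smallest p under 0.05 and groups that do not overlap, and, for each tektin, the 3 genes averaging 10 CPM or more that were most correlated with it. The lists of inner proteins and regulators came from general knowledge, and 7 inner protein symbols found no match.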

Additional observations from a re-analysis of the deposited data

Results flagged for a closer look

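The count column for reads lying on a gene's own strand, the minor strand of these libraries, was used in no comparison, and it held reads for each tektin in every library. The fewest in a library were 9 for Tekt1, 36 for Tekt2, 4 for Tekt3, 4 for Tekt4 and 6 for Tekt5, above the 3 reads that a count of 0 allows, which covers counting error only. Tekt2 had 36 to 81 such reads, 0.176% to 0.287% of its strand-resolved reads, against at most 0.114% in a library for the other 4 tektins. Over all genes, the opposite strand held 96.0% to 96.2% of strand-resolved reads. The own-strand share was thus larger over all genes than for any tektin.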

How the results depend on the processing

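Tektin calls did not depend on the processing: under each of the 14 alternative fits, 0 of 5 passed, with adjusted p from 0.495 to 0.997 (edgeR or DESeq2). Tekt2 and Tekt3 kept fold changes above 0 in all 14, at 0.05 to 0.13 and 0.03 to 0.08. Leaving out single libraries moved Tekt1 from -0.01 to 0.06, Tekt4 from -0.0013 to 0.13 and Tekt5 from -0.12 to 0.07. The Tekt1 and Tekt4 signs turned without cKO replicate 1. The labels do not say that replicate numbers mark litters or batches, so the numbers were not taken to pair mice. Deviations from the group mean correlated by 0.35, 0.26 and -0.05 between libraries of the same number. Between libraries of unlike number they correlated by -0.34 to 0.11. With a replicate block the fold changes were 0.03, 0.09, 0.06, 0.07 and -0.02 from Tekt1 to Tekt5, none called, and 49 genes were called in all. The count over all genes, 4 in the main setting, was 757 without a filter, 2 with unstranded counts, 193 with DESeq2 and 1 to 628 without single libraries, with 628 without cKO replicate 1, 116 without WT replicate 1, 7 without cKO replicate 3, 2 without WT replicate 2, and 1 without WT replicate 3 or cKO replicate 2. Other microtubule inner proteins had 0 calls, but 1 without a filter, 1 with DESeq2 (Dusp21 in both) and 1 without WT replicate 1 (Dusp21) or cKO replicate 1 (Spmip10), within a range of 0 to 1 without single libraries. The cause was not tested. With the longest transcript as length, WT levels per kilobase were 258 for Tekt1 and 223 for Tekt2. Tekt4 was then at 162 ± 8.80 (SD, n = 3) and Tekt3 at 121 ± 1.56 (SD, n = 3). The order of the 5 genes by mean was the same, but Tekt4 then stood above Tekt3 in every library, beyond their spread. With unstranded counts WT levels per kilobase were 237 for Tekt1, 126 for Tekt2 and 124 for Tekt3. Tekt4 was then at 128 ± 7.32 (SD, n = 3), above Tekt2 by mean but within the spread, and their order changed between libraries. Each tektin had at least 8697 reads in each library.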
